A study of Mus musculus with 12 samples.

Results

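Odf1, Odf2, Odf4, Akap3, Akap4, Fsip2, Ropn1, Cabyr, Smcp and Tekt2 were followed across the testis libraries of F1 mice. They were chosen by gene symbol as genes of the sperm tail's outer dense fibres and fibrous sheath, and each had 1 row among the 20788 genes of the deposited table. The choice is wider than its name at its edges, since Smcp encodes a protein of the mitochondrial capsule in the midpiece and Tekt2 a filament protein associated with the microtubules of the axoneme. All 10 genes had enough reads to be among the 16388 genes tested.

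The tail of a mouse sperm is built around an axoneme of microtubules. Outer dense fibres run along the axoneme through the midpiece and the principal piece, and the fibrous sheath encloses them in the principal piece, where it anchors kinase A and enzymes of glycolysis. Both structures are assembled in spermatids after meiosis, so their messenger RNAs are abundant in a testis that holds spermatids. In whole testis, fewer spermatids and less RNA per spermatid cannot be told apart.

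RNA was sequenced from testes in 4 groups of 3 libraries each. The study describes these animals as male offspring, 8 weeks old, of ICR males that received lentivirus by injection into the testes and were mated with untreated females. The series' own design text instead has the F1 testes as the organ that took up virus, and the labels spell the strain "IRC mouse". The knockdown group goes back to a virus with 3 mixed hairpin RNAs against the long non-coding RNA lncRNA5251 in the LV3 vector, and 3NC is the control of that vector. The overexpression group goes back to the full-length lncRNA5251 in the LV5 vector, and 5NC is the LV5 control. All 4 groups therefore share exposure to a lentiviral vector in their history, and no group without virus was analysed here. Whether the 3 libraries of a group stem from different animals is not said by any label, and the p-values therefore reflect only how far these libraries spread, part of which may be technical. No row is named lncRNA5251, so the labels of the knockdown and overexpression groups were not checked by its level.

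The libraries held 12719699 to 15771655 estimated reads, and the largest was 1.24 times the smallest. 3 libraries were shallower than the rest, 5NC replicate 2 at 13847277 reads, 5NC replicate 3 at 13699547 and overexpression replicate 3 at 12719699. The testis label was set beside marker lists. No marker of spermatocytes, round spermatids or elongating spermatids was at 0 in every library, which is a weak check at this depth. The 10 elongating spermatid markers summed to 14049 to 19966 CPM (reads of a gene relative to its library's total, scaled by the TMM method). 2 libraries stood apart by white blood cell genes. The summed level of 10 such genes (Ptprc, Csf1r, Adgre1 and others) was 455 CPM in 3NC replicate 2 and 439 CPM in knockdown replicate 1, against 90.6 to 114 CPM in the other 10 libraries.

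The stretches of genome just before a RefSeq start of 8 of these genes were compared with each other, because genes that are used in the same cells can share sequence there. Sequences came from a table of RefSeq promoters (GRCm38.p6, the same build as mm10) with 1 window per listed start, which was used for 8 of the 10, without Odf1 and Cabyr. The window ended at the outermost annotated start of the gene in 6 of them. For Odf2, with 4 listed starts, and for Ropn1, with 1, it lay before a listed start inside the annotated gene span, at chr2:29889470-29889719 and chr16:34650961-34651210. Among the 28 pairs, the longest run of identical bases was 20 bases in Akap3 and Akap4, and the next longest run in any pair was 11 bases. The run was present in 2 of 32841 windows searched on both strands, those of Akap3 and Akap4 themselves. It starts 34 bases before the Akap3 start and 47 bases before the Akap4 start. The 250 bases before each start are printed 5′ to 3′ on the strand of the gene, for Akap3 at chr6:126852848-126853097 and for Akap4 at chrX:7067265-7067514, both on the plus strand, with the shared run in capitals.
Akap3: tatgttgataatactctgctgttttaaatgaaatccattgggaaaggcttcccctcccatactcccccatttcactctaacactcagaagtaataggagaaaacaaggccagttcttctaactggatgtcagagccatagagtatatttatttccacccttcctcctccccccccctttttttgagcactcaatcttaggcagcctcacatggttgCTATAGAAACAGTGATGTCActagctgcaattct
Akap4: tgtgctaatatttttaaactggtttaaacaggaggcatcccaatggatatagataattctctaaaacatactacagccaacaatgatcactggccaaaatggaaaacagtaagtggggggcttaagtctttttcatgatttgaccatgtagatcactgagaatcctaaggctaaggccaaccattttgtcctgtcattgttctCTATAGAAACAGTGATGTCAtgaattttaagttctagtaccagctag

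The pair was singled out after the sequences had been seen. A shared run is a description and says nothing of a factor that binds it. Centred on each gene's own mean, the log2 CPM values of Akap3 and Akap4 differed by a root mean square of 0.177 across the libraries, which was the 24th smallest of the 45 pairs of these genes.

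Tekt2 is shown for another reason. Its window held 2 matches to GTTGCC, or GGCAAC on the other strand, the letters of 1 arm of the X-box that RFX factors bind in many cilium genes. They begin 96 and 22 bases before the start, and no other of the 8 windows held one. The letters were present in 10.4% of the 32841 windows. The Tekt2 window lies at chr4:126325689-126325938 on the minus strand, and the matches are in capitals.
Tekt2: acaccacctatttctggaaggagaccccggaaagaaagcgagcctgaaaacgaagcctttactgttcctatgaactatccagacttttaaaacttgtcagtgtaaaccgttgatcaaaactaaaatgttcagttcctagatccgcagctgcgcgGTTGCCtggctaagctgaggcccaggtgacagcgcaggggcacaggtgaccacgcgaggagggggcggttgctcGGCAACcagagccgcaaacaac

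Other short motifs were spread thinly. The letters TGACG or CGTCA (part of the CRE, TGACGTCA) were present in the windows of Odf2 and Fsip2 and in 17.8% of all windows. The CCAAT box (CCAAT or ATTGG) was present in those of Akap3, Akap4 and Fsip2 and in 33.9% of all windows. The full CRE (1.55% of all windows) and TATAAA or TTTATA (12.4%) were in none of the 8 windows used.

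Per length, the genes spanned a wide range of levels and most were among the highest in the testis. Smcp had the highest mean FPKM (fragments scaled by gene length and depth, as the authors computed it) over the 12 libraries, at 2280 ± 249.9 (SD, n = 12), followed by Odf2 at 1711 ± 89.1 and Odf1 at 1170 ± 243. Akap4, the main anchoring protein of the fibrous sheath, was at 781 ± 62.0 FPKM. Ropn1, Akap3 and Cabyr were at 392.3 ± 25.1, 321 ± 32.3 and 309.5 ± 48.5 FPKM, and Odf4 and Tekt2 at 213 ± 14.3 and 196 ± 25.6 FPKM. Fsip2, which encodes a very large sheath protein and has 21116 bases of merged exons, was lowest at 20.6 ± 2.94 FPKM. In mean FPKM, 9 of the 10 genes were above at least 97.5% of the genes in the table, and Fsip2 was above 78.6%.

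Some neighbours in this order could not be separated. Odf1 was above Akap4 in 12 of 12 libraries although their ranges overlapped, with a lowest Odf1 value of 776 FPKM and a highest Akap4 value of 890.5 FPKM. Ropn1 was likewise above Akap3 in 12 of 12 with overlapping ranges. Akap3 was above Cabyr in 9 of 12 libraries and Odf4 above Tekt2 in 9 of 12, so neither order holds beyond the spread between libraries. Smcp above Odf2, Odf2 above Odf1, Akap4 above Ropn1, Cabyr above Odf4 and Tekt2 above Fsip2 were separated in every library without overlap.

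**Figure D1:**
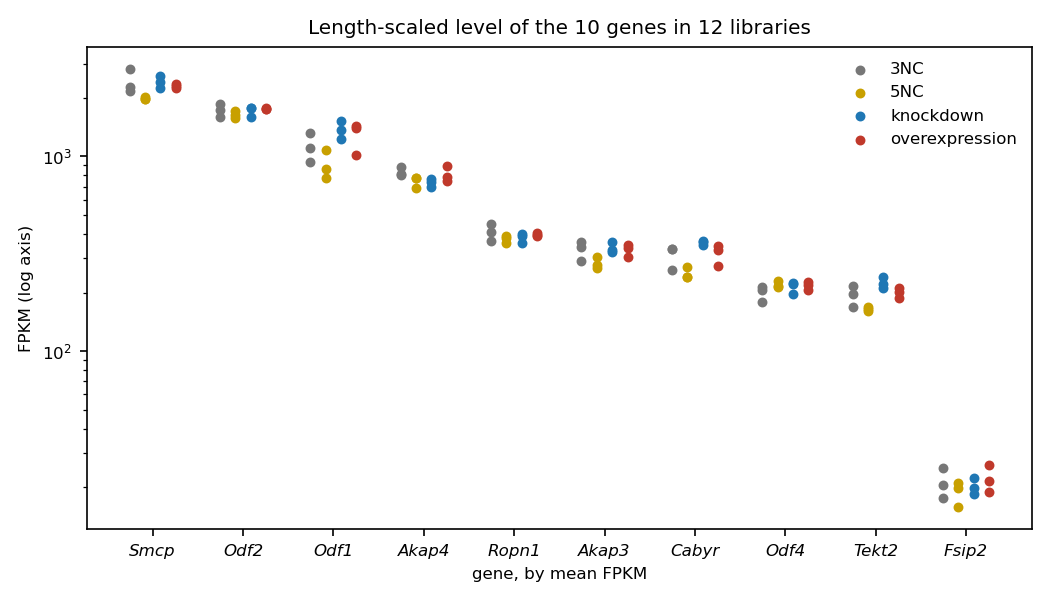
FPKM of the 10 genes (log axis) in each of the 12 libraries, ordered by mean FPKM and coloured by group, with 1 point per library. Smcp is highest at 1964 to 2815 FPKM and Fsip2 lowest at 15.81 to 26.0 FPKM.

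The comparison of the overexpression group with 5NC asked whether the LV5 virus carrying lncRNA5251 and its empty control differ in these genes. All 10 genes had a positive log2 fold change under TMM scaling, of which Odf4 turned to -0.03 with total counts, -0.01 with FPKM and -0.02 with a term for the 3 shallower libraries. By edgeR's quasi-likelihood test, 0 of 10 passed an adjusted p of 0.05, where 0.311% of all tested genes passed. Their log2 fold changes ran from 0.02 for Odf4 to 0.55 for Odf1, with a median of 0.27, beside a median of -0.01 over all tested genes, of which 48.2% were positive. 4 genes had an unadjusted p under 0.05 with a positive change, beside 7.07% of all tested genes. They were Odf1, Tekt2, Cabyr and Akap3, with adjusted p-values from 0.283 to 0.379. In 7 of 10 genes every overexpression library was above every 5NC library in CPM, beside 11.3% of all tested genes. Without overexpression replicate 1, 0 of 10 were higher with an unadjusted p under 0.05, beside 3.84% of all genes in that fit. Without overexpression replicate 2 there was 1, and without 5NC replicate 2 there were 2, beside 4.93% in each fit. The median lay between 0.24 and 0.27 in these 3 fits. The genes are not independent of each other, as their values share the same libraries.

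In the comparison of the knockdown group with 3NC, the genes were divided. 7 had a positive and 3 a negative log2 fold change, of which Odf2 turned from 0.01 to 0 with total counts and -0.01 with FPKM. 0 of 10 passed (edgeR), beside 0% of all tested genes, and 0 of 10 had an unadjusted p under 0.05, beside 5.64%. The values ran from -0.17 for Akap4 to 0.31 for Odf1 with a median of 0.03, beside -0.02 over all tested genes. No gene kept the knockdown and 3NC libraries apart, beside 11.3% of all tested genes. Without 3NC replicate 2, a library with high white blood cell genes, 4 were positive and 6 negative, with a median of -0.09. Without 3NC replicate 3, 9 were positive and 1 negative, with a median of 0.17. Without knockdown replicate 2 or knockdown replicate 3 there were 5 of each sign, with medians of -0.01 and 0.02.

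The vector controls were compared as a background for both. Relative to 3NC, 5NC was lower in 9 of 10 genes and higher in Odf4, with a median log2 fold change of -0.23, beside -0.02 over all tested genes. 0 of 10 passed (edgeR), beside 0.128% of all tested genes, and 3 of 10 (Smcp, Cabyr and Akap3) had an unadjusted p under 0.05 with a negative change, beside 6.55%. In 1 gene, Smcp, every 5NC library was below every 3NC library, beside 6.18% of all tested genes. Without 3NC replicate 2, 8 of 10 were lower with an unadjusted p under 0.05, beside 8.58% of all genes in that fit, and 0 passed, with a median of -0.32, while the calls over all genes were 35 against 21. Without 3NC replicate 3 the count was 0, beside 7.17%, and the median -0.12. Without 5NC replicate 2 or 3 the count was also 0, beside 4.91% and 4.34%. This comparison shares the 5NC libraries with that of the overexpression group, so a low value in 5NC enters both with opposite sign.

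The difference of the knockdown and overexpression effects was tested directly. It was negative in 9 of 10 genes, with a median of -0.22, beside -0.02 over all tested genes, and 0 of 10 passed (edgeR, each with an adjusted p of 1), beside 0.0244% of all tested genes. Akap4 was the only one of the 10 with an unadjusted p under 0.05, at -0.33 ± 0.14 (SE), beside 4.63% of all tested genes. The median and this count rested on single libraries. Without 3NC replicate 2 the median was -0.34 and 4 of 10 were lower with an unadjusted p under 0.05, beside 4.92% of all genes in that fit. Without 3NC replicate 3 the median was -0.09, and without 3NC replicate 1 or knockdown replicate 1 it was -0.13, with a count of 0 in each of these 3 fits, beside 4.63% to 5.45% of all genes in them. The count was also 0 without knockdown replicate 2, 5NC replicate 1 or any single overexpression library, beside 3.48% to 4.03%. DESeq2 and limma on FPKM also called 0 of the 10 genes in each of the 4 contrasts. Over all genes, DESeq2 called 323 of 17111 for overexpression, 163 of 17507 for 5NC against 3NC, 16 of 20282 for knockdown and 41 of 18696 for the difference of effects, and limma on log2(FPKM + 0.1) called 82, 28, 0 and 6 of 15546 in the same order.

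**Figure D2:**
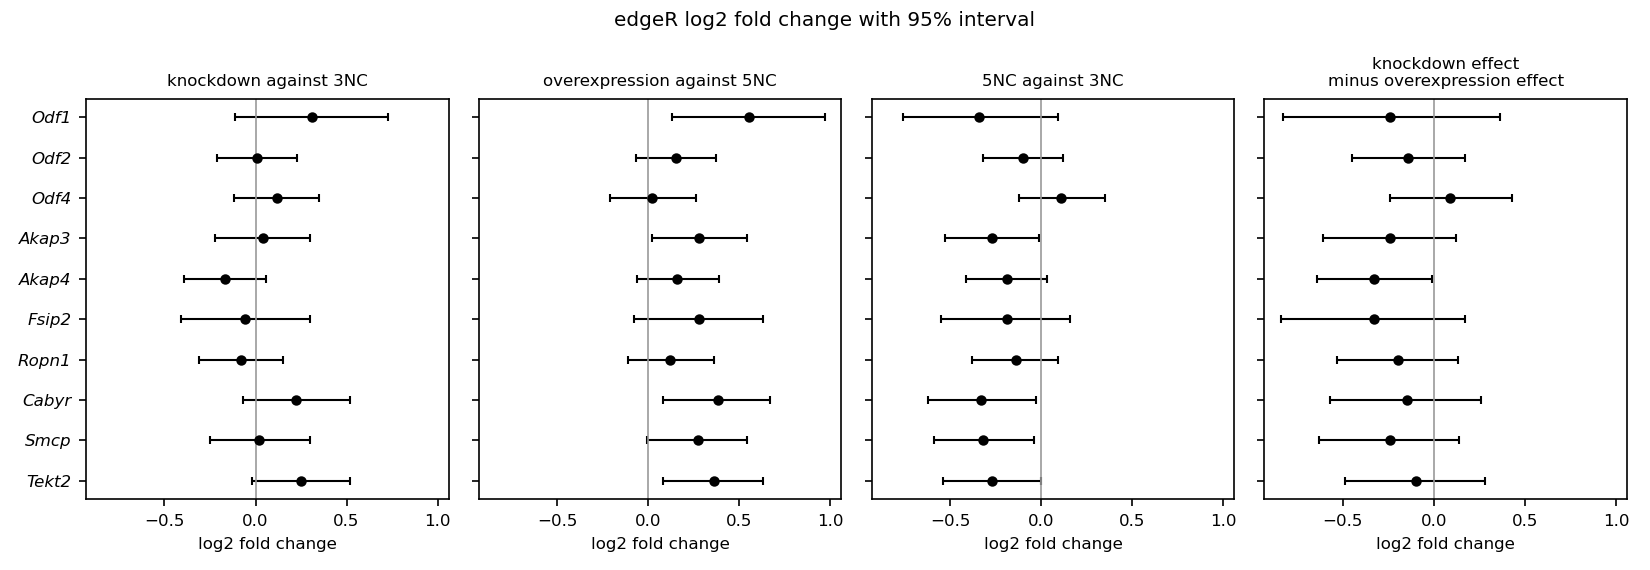
log2 fold change of each gene (points) with its 95% interval (bars) from edgeR, in 4 panels for the knockdown against 3NC, the overexpression against 5NC, the vector controls (5NC relative to 3NC), and the knockdown minus the overexpression effect. Under TMM scaling all 10 points lie above 0 in the overexpression panel, where Odf4 is at 0.02 and turns to -0.03 with total counts, and 9 lie below 0 in the panel of the vector controls, while none passed an adjusted p of 0.05.

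Among the outer dense fibre genes, Odf1 varied most. Odf1 (gene ID 18285, chr15:38219203-38226735) encodes a main protein of the fibres that is also needed to hold the sperm head to its tail. It was at 1041, 729 and 813 CPM in 5NC and at 1423, 1376 and 983 CPM in the overexpression group. Both groups overlapped through overexpression replicate 3, which lay below 5NC replicate 1. The fold was 1.46 (95% interval 1.09 to 1.96), or 0.55 ± 0.19 (SE) on the log2 scale, and the adjusted p was 0.283 (edgeR). In 3NC it was at 1289.7, 849 and 1122 CPM, and in the knockdown group at 1158, 1370.0 and 1518 CPM. These groups also overlapped, since knockdown replicate 1 was below 3NC replicate 1. The log2 fold change was 0.31 ± 0.19 (adjusted p = 0.764), and its interval of -0.11 to 0.73 includes 0. Without 3NC replicate 2 it was 0.16, and without 3NC replicate 1 it was 0.46.

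Odf2 was the steadiest of the 10. Odf2 (gene ID 18286, chr2:29889014-29931746) encodes a coiled-coil protein of the fibres that is also found at centrosomes. It was at 4262, 3400.3 and 4143 CPM in 3NC and at 3560.1, 4141 and 4155 CPM in the knockdown group, so both groups had 1 low library. It was at 3836, 3502 and 3646 CPM in 5NC and at 4095, 4087 and 3995 CPM in the overexpression group. The overexpression libraries were all above those of 5NC, with a log2 fold change of 0.15 ± 0.10 (adjusted p = 0.618, edgeR). Odf2 shares 97 bases of exon with Gm23865, a small nuclear RNA gene on the opposite strand, and no source used here says whether the counting used strand, so reads of both cannot be told apart.

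Odf4 (gene ID 252868, chr11:68921835-68927081) encodes a transmembrane protein of the tail. Its means were close together, with 219 ± 29.9 CPM (SD, 3 libraries) in 3NC, 237 ± 10.1 in 5NC, 237 ± 23.5 in the knockdown and 240.5 ± 13.3 in the overexpression group. It was the gene with the smallest difference between overexpression and 5NC (0.02 ± 0.11, adjusted p = 0.964, edgeR), with an interval of -0.21 to 0.26. It was also the only one of the 10 that was higher in 5NC than in 3NC, at 0.11 ± 0.11 (adjusted p = 0.746, edgeR), and it was 0.00 without 3NC replicate 2, the lowest 3NC library for Odf4 at 184 CPM.

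The fibrous sheath genes include a pair of A-kinase anchoring proteins. Akap3 (gene ID 11642, chr6:126853098-126874308), which organises the sheath as it is first laid down, was at 902, 784 and 816 CPM in 5NC. It was at 1079.5, 1039 and 923 CPM in the overexpression group, with no overlap. The log2 fold change was 0.28 ± 0.12 (adjusted p = 0.379, edgeR). Akap3 was at 1106, 831 and 1077 CPM in 3NC and at 953, 1118 and 1031 CPM in the knockdown group. The knockdown libraries lay among the 3NC libraries or just above them, with a log2 fold change of 0.04 ± 0.12 (adjusted p = 0.935, edgeR).

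Akap4 (gene ID 11643, chrX:7067515-7078609), the main structural protein of the sheath, was at 2233, 2052 and 2526 CPM in 3NC. It was at 1862, 2068 and 2145 CPM in the knockdown group. 2 of the knockdown libraries lay inside the 3NC range and replicate 1 below it, with a log2 fold change of -0.17 ± 0.10 (adjusted p = 0.764, edgeR), or -0.07 without 3NC replicate 3 and -0.24 without 3NC replicate 2. In 5NC it was at 1849, 2055 and 2072 CPM, and in the overexpression group at 2084, 2169 and 2436 CPM. The gap between the highest 5NC and the lowest overexpression library was narrow, and the log2 fold change was 0.16 ± 0.10 (adjusted p = 0.579, edgeR), or 0.10 without overexpression replicate 3.

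Fsip2 (gene ID 241516, chr2:82943634-83008937) was at 373, 409 and 553 CPM in 3NC and at 458, 427.5 and 398 CPM in the knockdown group. It was at 327, 429 and 410.2 CPM in 5NC and at 462, 400.1 and 551 CPM in the overexpression group. All pairs of groups overlapped, and the log2 fold changes were -0.06 ± 0.16 for knockdown and 0.28 ± 0.16 for overexpression (edgeR, adjusted p = 0.935 and 0.544). 3NC replicate 3 and overexpression replicate 3 were the highest libraries, and without 3NC replicate 3 the knockdown value turned to 0.14. The overexpression value was 0.16 without overexpression replicate 3 and 0.17 without 5NC replicate 1.

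Ropn1 and Cabyr encode proteins with a domain like that by which kinase A docks on AKAP proteins, and Cabyr also binds calcium. Ropn1 (gene ID 76378, chr16:34649832-34678610) ranged from 256 CPM in 3NC replicate 2 to 349 CPM in 3NC replicate 3, so the whole range of the 12 libraries lay within 1 control group. Its log2 fold changes were -0.08 ± 0.11 for knockdown and 0.12 ± 0.11 for overexpression (edgeR, adjusted p = 0.845 and 0.723). Cabyr (gene ID 71132, chr18:12740825-12755146) was at 445, 321 and 460.3 CPM in 3NC and at 449, 493 and 489 CPM in the knockdown group. Those groups overlapped through knockdown replicate 1, and the log2 fold change was 0.22 ± 0.14 (adjusted p = 0.764, edgeR), or 0.07 without 3NC replicate 2. Cabyr was at 353, 311 and 314 CPM in 5NC and at 460.0, 445 and 364 CPM in the overexpression group, with no overlap. The fold was 1.30 (95% interval 1.06 to 1.60), with an adjusted p of 0.300 (edgeR).

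Smcp (gene ID 17235, chr3:92583866-92589073), the cysteine-rich protein of the mitochondrial capsule, showed the tightest groups under the LV5 vector. It was at 1507, 1432 and 1442 CPM in 5NC and at 1738, 1771 and 1757 CPM in the overexpression group. The groups did not overlap, and the log2 fold change was 0.27 ± 0.12 (adjusted p = 0.433, edgeR). In 3NC it was at 1721, 1521 and 2218 CPM and in the knockdown group at 1657, 1870.3 and 2019 CPM. The spread of the 3 3NC libraries was wider than the distance between these groups, and the log2 fold change was 0.02 ± 0.12 (adjusted p = 0.967, edgeR).

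Tekt2 (gene ID 24084, chr4:126322121-126325688) was at 249.7, 224 and 229.7 CPM in 5NC and at 324, 305 and 271 CPM in the overexpression group. The groups did not overlap, with a fold of 1.28 (95% interval 1.06 to 1.55) and an adjusted p of 0.283 (edgeR). In 3NC it was at 296, 228 and 324 CPM and in the knockdown group at 318, 368 and 323 CPM. 2 of the knockdown libraries lay between the lowest and highest 3NC libraries, and the log2 fold change was 0.25 ± 0.12 (adjusted p = 0.764, edgeR), or 0.11 without 3NC replicate 2. Tekt2 shares 396 bases of exon with Gm12945 on the opposite strand, a transcript with no row in the table, so reads of both cannot be told apart.

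**Figure D3:**
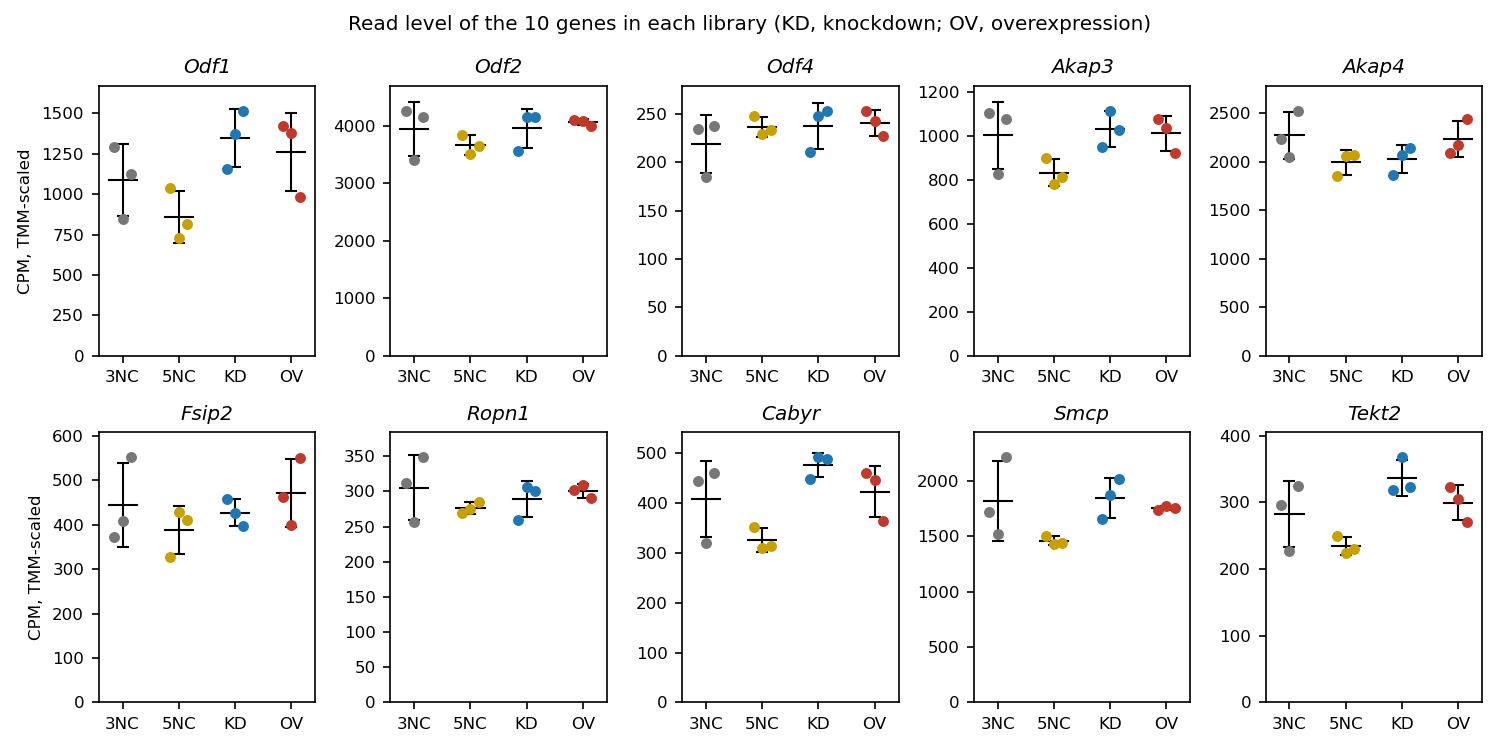
CPM of each gene (TMM-scaled, each axis from 0) in the 3 libraries of each group, with the group mean (horizontal line) and SD (bars, n = 3). In the 5NC group, Cabyr, Smcp and Tekt2 sit at 311 to 353, 1432 to 1507 and 224 to 249.7 CPM, below every library of the overexpression group.

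Many of the 10 genes were high or low in the same libraries. Their summed level ran from 9971 CPM in 5NC replicate 2 to 13010.0 CPM in 3NC replicate 3, which is 1.30% of the scaled total. In 3NC replicate 2, all 10 genes were below their own mean over the 12 libraries, by 0.23 on average on the log2 scale. In 3NC replicate 3, none was below its own mean, and the average was 0.19 above it. In each of the 3 libraries of 5NC, 9 of 10 genes were below their own mean, on average by 0.14, 0.22 and 0.18 on the log2 scale. The average over all tested genes lay between -0.04 and 0.14 in every library, and was highest in 3NC replicate 2 (0.14) and knockdown replicate 1 (0.13), the libraries with the white blood cell genes.

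How far each gene ranged over the 12 libraries also differed. The distance between the highest and lowest library was 1.06 on the log2 scale for Odf1, 0.76 for Fsip2, 0.72 for Tekt2, 0.66 for Cabyr and 0.63 for Smcp. It was 0.33 for Odf2 and 0.45 to 0.51 for Akap4, Ropn1, Odf4 and Akap3, beside a median of 0.75 over all tested genes. 8 of the 10 genes thus had a smaller range than this median does. The median covers genes of all read levels, most of them lower than these genes, and the part of read level was not tested.

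The genes did not all follow each other. Of the 45 pairs, Cabyr and Tekt2 had the most similar profiles, with a root mean square difference of 0.053 in centred log2 CPM, followed by Odf2 and Ropn1 at 0.067. Odf1 and Fsip2 were the least alike at 0.402, followed by Odf1 and Akap4 at 0.344. The log2 CPM of Odf1 minus that of Akap4 was -1.49 to -1.17 in 5 libraries (3NC replicates 2 and 3, 5NC replicates 2 and 3 and overexpression replicate 3) and -0.83 to -0.50 in the other 7. Tekt2 minus Fsip2 separated the same libraries, at -1.03 to -0.77 against -0.52 to -0.22. CPM is not per length, so these differences do not order the genes by level and only their change from library to library is read. The 5 libraries include the 3 with fewest reads. In 4 of the 5, all but 3NC replicate 2, the summed level of 10 spermatocyte markers (Sycp1, Sycp3, Piwil1 and others) was 1794 to 2007 CPM, against 1458 to 1549 CPM in the remaining 8 libraries. The part of spermatocyte markers and of depth in the differences between the tail genes was not tested.

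**Figure D4:**
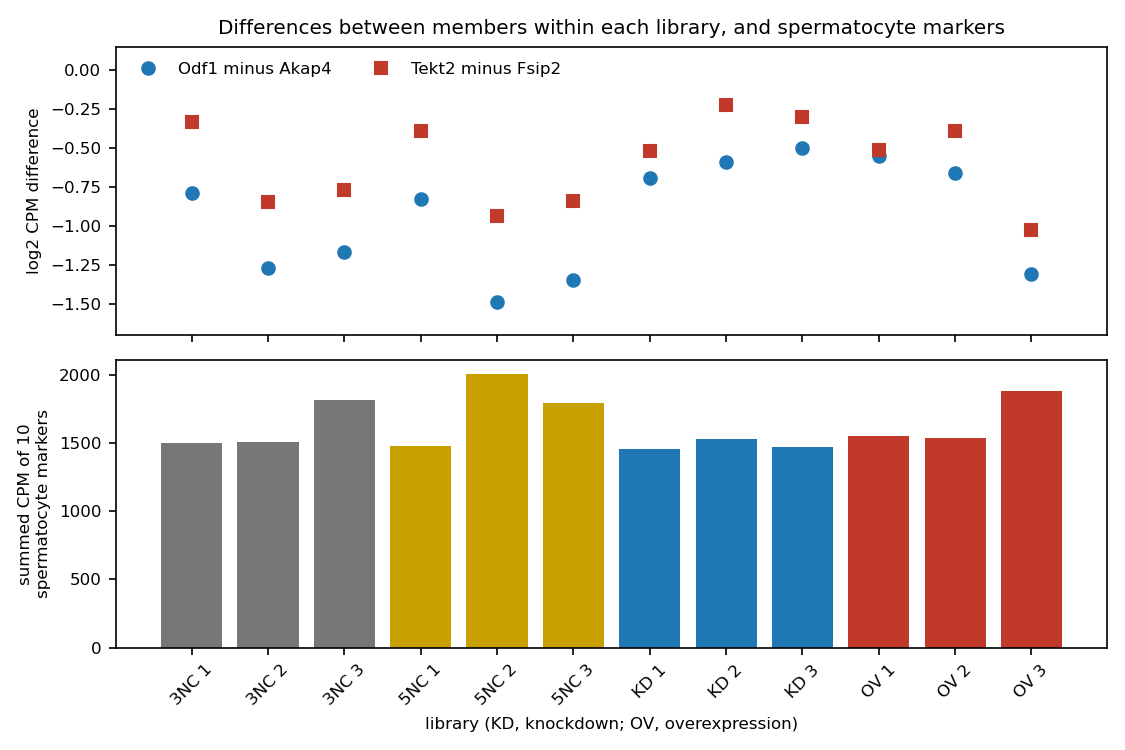
Upper panel, log2 CPM of Odf1 minus Akap4 (circles) and of Tekt2 minus Fsip2 (squares) in each library. Lower panel, summed CPM of 10 spermatocyte markers in the same libraries, with bars coloured by group. 5 libraries have both differences low, and 4 of these are the libraries with spermatocyte sums of 1794 to 2007 CPM.

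Depth was unequal between the groups compared, as 2 of 3 5NC libraries but 1 of 3 overexpression libraries were shallower. The values were therefore set side by side within each depth, without a test because of 1 library on a side. Among the deeper libraries, the mean log2 CPM of the overexpression group minus that of 5NC was positive in 9 of 10 genes and 0.00 in Odf4, with a median of 0.23. Among the shallower libraries it was positive in 9 of 10 and -0.03 in Odf4, also with a median of 0.23. Odf1 was 0.43 higher in the deeper and 0.35 higher in the shallower libraries, and Fsip2 0.40 and 0.39. With the shallower libraries as a term in the fit, 5 of 10 were higher with an unadjusted p under 0.05, beside 6.97% of all tested genes, and 0 passed. Depth was more unequal between the vector controls, since none of the 3NC libraries was among the shallower. There the same term moved the median from -0.23 to -0.15, with 9 of 10 still negative, 2 of 10 lower with an unadjusted p under 0.05, beside 7.65% of all tested genes, and 0 passing. The 2 were Akap4 and Fsip2. Smcp, Cabyr and Akap3, which were under 0.05 without the term, were not with it. Odf1 moved from -0.34 to -0.04 and Cabyr from -0.33 to -0.17, while Fsip2 moved from -0.19 to -0.44 and Akap4 from -0.19 to -0.31 (edgeR, adjusted p from 0.271 to 0.937).

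Other genes of the tail were examined as a list of 34, of which 33 were tested and Odf3l2 was not. None passed in any of the 4 contrasts (edgeR). Between overexpression and 5NC, 27 were higher and 6 lower with a median log2 fold change of 0.16, beside 48.2% higher over all tested genes, and 7 had an unadjusted p under 0.05, all higher, beside 7.07%. The fibre partners (8 of 10 higher, median 0.16), the sheath genes and their enzymes (9 of 10, 0.20), the tektins (3 of 4, 0.16) and the genes of the mitochondrial sheath and annulus (7 of 9, 0.11) had medians of one sign. Akap14, another anchoring protein of the sheath, had the smallest p, with 13.1 ± 1.12 CPM (SD, 3 libraries) in 5NC, 21.0 ± 2.94 CPM in the overexpression group and a log2 fold change of 0.68 ± 0.18 (adjusted p = 0.157, edgeR). Of the 6 lower genes, Tekt1, a tektin like Tekt2, had the smallest p, with a log2 fold change of -0.19 ± 0.10 and an adjusted p of 0.498.

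Between knockdown and 3NC, 23 of the 33 were higher and 10 lower, with a median of 0.08, beside 46.7% higher over all tested genes. Odf3l1, a relative of the fibre-associated Odf3, had the smallest p among the higher genes, with 61.8 ± 12.04 CPM in 3NC, 87.8 ± 2.86 CPM in the knockdown group and a log2 fold change of 0.51 ± 0.15 (adjusted p = 0.764, edgeR). Spata19, a protein of sperm mitochondria, had the smallest p among the lower genes, at -0.17 ± 0.09 (adjusted p = 0.764). Between 5NC and 3NC, 10 were higher and 23 lower, with a median of -0.12, beside 46.0% higher over all tested genes. Akap14 had the smallest p there too among the lower genes, at -0.47 ± 0.18 (adjusted p = 0.406), and Ccdc38 among the higher, at 0.21 ± 0.12 (adjusted p = 0.548). In the difference of effects, 9 were positive and 24 negative, beside 47.1% positive over all tested genes. The median was -0.09, beside -0.02 over all tested genes. The smallest p-values in each direction were those of Tekt1 at 0.40 ± 0.15 and Akap14 at -0.46 ± 0.25, each with an adjusted p of 1.

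**Figure D5:**
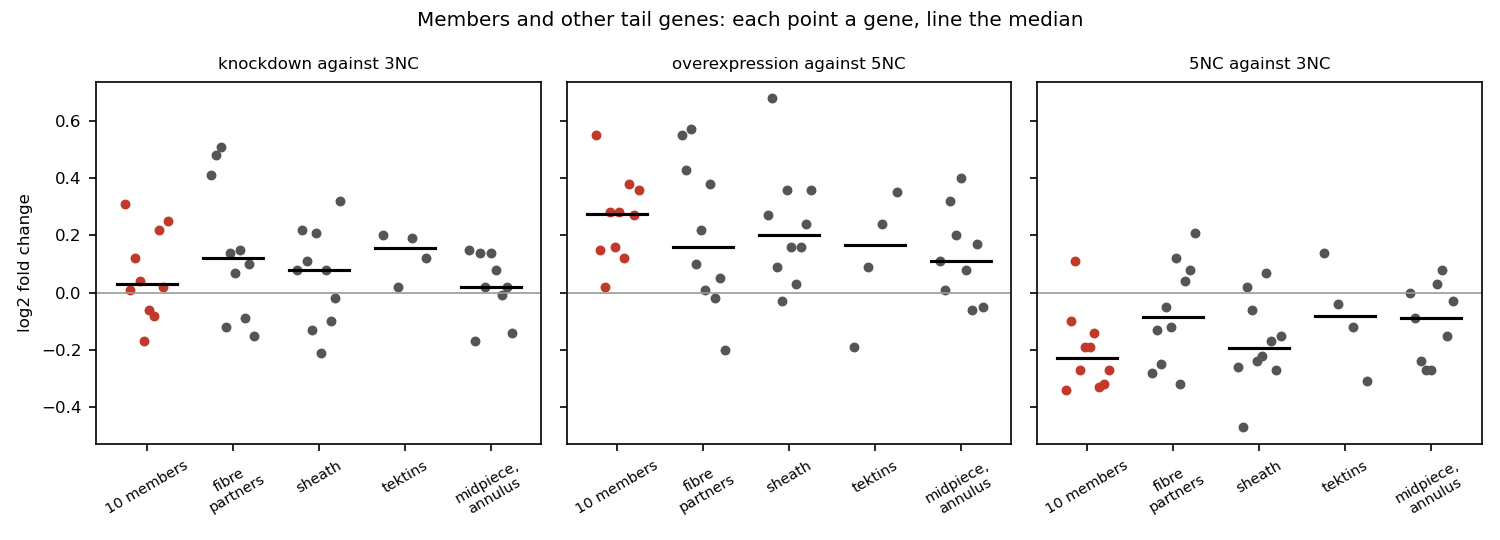
log2 fold change of the 10 genes (red) and of the other tested tail genes in 4 classes (grey), in 3 panels by comparison, with 1 point per gene and a line at each median. In the overexpression panel all medians are above 0, from 0.11 to 0.27, and in the panel of 5NC against 3NC all are below 0.

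Markers of germ cell stages and of other testis cells were examined in the same comparisons. Between overexpression and 5NC, 10 of 10 round spermatid markers (Acrv1, Izumo1, Tssk1 and others) were higher with a median log2 fold change of 0.30, and 8 of 10 elongating spermatid markers (Prm1, Tnp1 and others) with a median of 0.16. That list shares Oaz3 and Gapdhs with the tail list. Of 10 spermatocyte markers, 4 were higher and 6 lower, with a median of -0.09 and 1 gene that passed (lower), beside 0.311% of all tested genes. Over all tested genes, 48.2% were higher here, 46% between 5NC and 3NC and 46.7% between knockdown and 3NC. The summed round spermatid level was 1558 to 1622 CPM in 5NC and 1720.0 to 1982 CPM in the overexpression group. The elongating spermatid sums overlapped, at 14905 to 18411 and 15478 to 19193 CPM. So did the spermatocyte sums, at 1477 to 2007 and 1533 to 1876 CPM. Between 5NC and 3NC, 9 of 10 round spermatid markers were lower with a median of -0.26, 7 of 10 elongating spermatid markers were lower with a median of -0.14, and 9 of 10 spermatocyte markers were higher with a median of 0.13. Between knockdown and 3NC, 8 of 10 round and 6 of 10 elongating spermatid markers were higher, with medians of 0.08 and 0.02, and 8 of 10 spermatocyte markers were lower with a median of -0.13. The 8 Leydig cell markers had a median of -0.38 there, with 5 lower and 3 higher and none passing. Their median was 0.09 between overexpression and 5NC and 0.12 between 5NC and 3NC. Within 3NC alone their summed level ran from 1085 to 2110 CPM. The 10 Sertoli cell markers had medians of 0.06 for knockdown, -0.09 for overexpression and -0.02 for 5NC against 3NC, with none passing. White blood cell markers were 8 of 10 higher between overexpression and 5NC, with a median of 0.19 and summed levels of 108.7 to 114 CPM against 91.9 to 102 CPM. They were 10 of 10 lower between 5NC and 3NC, with a median of -1.36, which rested on 3NC replicate 2 at 455 CPM, since 3NC replicates 1 and 3 were at 107 and 90.6 CPM. Of 8 tested spermatogonia markers, 6 were lower between overexpression and 5NC (median -0.14) and 6 higher between 5NC and 3NC (median 0.15), and none of either list passed. None of the round or elongating spermatid markers passed in any contrast (edgeR), and the part of all these markers in the values of the tail genes was not tested.

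The summed level of the 10 elongating spermatid markers was 14049 CPM in 3NC replicate 2 and 14578 CPM in knockdown replicate 1, the lowest of the 12 libraries. These are the 2 libraries with the white blood cell genes. The sum did not set them apart, as 5NC replicate 2 followed at 14905 CPM and overexpression replicate 3 at 15478 CPM. The highest was 19966 CPM. Without 3NC replicate 2 and knockdown replicate 1, the tail genes were 4 higher and 6 lower between knockdown and 3NC, with a median of -0.02 and 0 of 10 passing. Without them in the shared fit, 6 of 10 were higher with an unadjusted p under 0.05 between overexpression and 5NC, beside 9.28% of all genes in that fit, and 0 passed, with a lowest adjusted p of 0.0883 (edgeR). That fit also called more of all genes, 159 of 16433 against 51 of 16388.

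Outside these lists, the genes whose profile was most like the mean of the 10 were sought among 10487 genes. Likeness was the root mean square difference in centred log2 CPM over the 12 libraries, whose median over all candidates was 0.214. The closest were Clip4 (0.035), Dpysl3 and Grip1 (0.041 each), and March10 and Ppm1a (0.042 each). For Odf1 alone the median over the candidates was 0.367, and the closest were Wdr54 (0.052), Zdhhc19 (0.053), Theg (0.063), Carm1 (0.069) and Spem2 (0.071). Theg and Spem2 are known from spermatids. These genes were nearer to Odf1 than any of the other 9 tail genes, but they were picked as the closest of 10487. For the other 9 tail genes the difference from Odf1 ran from 0.131 for Cabyr to 0.402 for Fsip2. Only Fsip2 was above the median of 0.367.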

How the data were processed

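Testis RNA-seq libraries, 3 per group, were compared. Per the methods, mRNA was enriched with oligo(dT) beads, and reads were aligned to mouse genes with SOAPaligner (build mm10 per the labels). Gene by gene, the deposited file gives estimated counts, unscaled and not whole for 11.57% to 12.6% of the genes, and FPKM values computed by the authors. No source used here says how reads were shared among isoforms. The study called genes with DEGseq, which has no term for the spread between libraries. 18 further per-sample columns were not used, and columns of the authors' own comparisons were neither used nor printed.

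Estimated counts were rounded and filtered with filterByExpr, which removed 4400 genes. A single model of all 12 libraries had the 4 groups as its terms and no covariate, with TMM scaling and edgeR 4.0.16 quasi-likelihood tests in R 4.3.3, adjusted by the Benjamini-Hochberg method over 16388 genes. The biological coefficient of variation was 22.9%. log2 CPM used a prior count of 2. Gene IDs were matched to RefSeq for 20630 genes (99.2%).

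The members and gene lists were chosen with earlier results of these data known. All members were named. Of the other tail genes, those named had the smallest p in each direction, since none passed, and likeness took the 5 closest genes with a mean log2 CPM of at least 3. Alternatives were RLE size factors, no count filter, a replicate block, only the 6 libraries compared, DESeq2 1.42.0, limma-trend (3.58.1) on log2(FPKM + 0.1) and log2(FPKM + 1) where at least 3 libraries reached an FPKM of 0.5, and each library left out. The fit was tested on simulated data.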

Additional observations from a re-analysis of the deposited data

How the results depend on the processing

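None of the 10 genes passed in any contrast under any alternative. Total counts without scaling, leaving out 3NC replicate 2 and knockdown replicate 1 together, and a term for the 3 shallowest libraries were chosen after seeing the data. Of 690 values of single genes under alternatives, 665 kept their sign and 25 did not, none larger than 0.14. For knockdown, Odf2 (0.01) became -0.01 with either FPKM pseudocount, 0 with total counts and -0.02 without both named libraries, where Akap3 and Smcp were also at -0.02. For overexpression, Odf4 (0.02) became -0.01 with either FPKM pseudocount, -0.03 with total counts and -0.02 with the depth term. With single libraries left out, the knockdown value ran from -0.09 to 0.08 for Odf2, -0.09 to 0.20 for Smcp, -0.08 to 0.12 for Akap3, -0.17 to 0.14 for Fsip2 and -0.20 to 0.04 for Ropn1, the overexpression value from -0.01 to 0.07 for Odf4, 5NC against 3NC from -0.30 to 0 for Fsip2, and the difference of effects from -0.02 to 0.17 for Odf4 and -0.24 to 0.01 for Tekt2. The cause was not tested.

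The lowest adjusted p of the 10 genes ranged over the alternatives from 0.0883 to 0.787 for overexpression, 0.472 to 1 for knockdown and 0.0817 to 0.752 for 5NC against 3NC. Over all tested genes, overexpression against 5NC called 51, and 323 with DESeq2, 107 with only its 6 libraries and 9 without 5NC replicate 2 or 3. The other calls over all tested genes were 0 for knockdown (0 to 16, the highest with DESeq2), 21 for 5NC against 3NC (3 to 163) and 4 for the difference of effects (2 to 41).

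No pairing of the samples by replicate number was seen. Only 5 of 18 same-numbered pairs of libraries had deviations correlated above 0.1 (r from -0.64 to 0.39, beside -0.58 to 0.77 in other pairs). 1 of 12 libraries correlated best with its own number in every group. Such a check cannot exclude that same-numbered samples were handled together. With the replicate block, 0 of the 10 genes passed in each contrast, and the calls over all tested genes in overexpression against 5NC were 21.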
